A study of Mus musculus with 14 samples.

Results

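The Egr and Nr4a transcription factors and the Nab corepressors were followed in microglia, the resident macrophages of the brain. The genes were taken by symbol, and 8 entries of the 24394 named genes matched: Egr1, Egr2, Egr3, Nr4a1, Nr4a2, Nr4a3, Nab1 and Nab2. RNA was sequenced from about 20000 living CD11b+CD45lo cells per sample, sorted by flow cytometry. The anti-CD22 group (7 libraries) came from C57BL/6 mice of 18 months whose cerebrospinal fluid had received an antibody that blocks CD22, an inhibitory sialic acid receptor, from an osmotic pump for 1 month. The IgG group (7 libraries) came from mice of the same strain and age that received a control IgG in the same way. All mice of both groups carried a pump and a cannula, and the cells came from the hemisphere away from the cannula. The labels give no antibody clone and do not tie a library to 1 animal, so the tests below weigh differences against the spread among samples, which may be technical.

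Egr proteins are zinc finger transcription factors that are made within minutes after a cell is stimulated, mostly through ERK kinases and the serum response factor. Nab1 and Nab2 bind the Egr proteins and turn them into repressors, and Nab2 is itself known to be induced by Egr factors, which gives a feedback loop. Nr4a proteins are orphan nuclear receptors that need no classical ligand and are controlled by how much of them is made. In macrophages and microglia they are known mainly for restraining inflammatory genes.

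The table held between 27394162 and 29235291 normalized counts per library, and between 12606 and 13418 genes were above 0. Whole reads could be recovered for 13 libraries and numbered between 20221836 and 38101421. All 9 microglia markers were present, with a summed level of 1727900 to 1863250 normalized counts in anti-CD22 libraries and 1638120 to 1944280 in IgG libraries. Transcript length was related to the level differently in single libraries, with a Spearman rho across genes of -0.269 to 0.327 in anti-CD22 libraries and -0.259 to -0.00292 in IgG libraries. Among all libraries, anti-CD22 replicates 1, 2 and 3 had the strongest relation. Member values fitted after these length and GC trends had been taken out (trend-free values) are given beside the results.

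None of the 8 genes passed the test between anti-CD22 and IgG microglia. Of the 5 members with a mean of at least 10 normalized counts, which were tested, 0 passed an adjusted p of 0.05 by limma, where 0.00859% of all 11646 tested genes passed. Egr1 and Egr2 had the lowest p of the members and were lower on average in anti-CD22 microglia. These 2 members were at an unadjusted p under 0.05, a limit that 12.8% of all tested genes met in either direction and 5.95% in the lower direction. On the whole reads of 13 libraries, edgeR called 0 of all 11646 tested genes, members included. By edgeR, Egr2 was at an unadjusted p of 0.0402 and Egr1 at 0.102, where 1027 of all tested genes were under 0.05. DESeq2 called 0 members and 32 of all 11646 genes. It gave no adjusted p for 3839 genes, Egr2 and Nr4a1 among them. The 2 groups overlapped for all 5 tested members, while they did not overlap for 0.258% of all tested genes. In bulk RNA, fewer cells of a type and less RNA per cell cannot be told apart.

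Egr1, the best studied member of its family, lies on chromosome 18 at 34859823 to 34864984 on the plus strand (GRCm38), and no other annotated gene overlaps it. Its normalized count was 255, 455, 232, 399.7, 393, 364 and 179.6 in anti-CD22 replicates 1 to 7. In IgG replicates 1 to 7 it was 425, 425, 682, 334, 486, 490.3 and 269. IgG replicate 3 was the highest library and anti-CD22 replicate 7 the lowest, and all but 1 of the anti-CD22 libraries were below the middle IgG value. The mean was 326 ± 103 in anti-CD22 microglia and 445 ± 131 in IgG microglia (SD, n = 7 each). The log2 fold change was -0.46, with an SE of 0.22 and a 95% interval that spans -0.92 to -0.01 (adjusted p = 0.383 by limma). The trend-free value was -0.46 too (adjusted p = 0.515 by limma).

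Egr2, known for its part in myelinating Schwann cells and in T cell anergy, lies on chromosome 10 at 67535475 to 67542188 on the plus strand. It had the largest difference of the tested members. Normalized counts were 101, 258, 138, 98.6, 82.6, 191 and 108 in anti-CD22 replicates 1 to 7. They were 113, 130.02, 476, 268, 198, 310.1 and 162 in IgG replicates 1 to 7. Anti-CD22 replicates 1, 4, 5 and 7 lay below every IgG library, and IgG replicates 3, 4 and 6 lay above every anti-CD22 library. The mean was 139.6 ± 63.5 in anti-CD22 microglia and 237 ± 127 in IgG microglia (SD, n = 7 each), a log2 fold change of -0.70 with an SE of 0.31 (95% interval -1.35 to -0.06). The adjusted p was 0.363 by limma, and the trend-free log2 fold change was -0.68 (adjusted p = 0.515).

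Egr3, which acts in muscle spindle formation and lymphocytes, was barely detected. It lies on chromosome 14 at 70077203 to 70082614. The 7 anti-CD22 libraries, replicates 1 to 7, had 8.24, 1.77, 0, 8.22, 1.86, 24.2 and 0 normalized counts. The 7 IgG libraries had 13.6, 0, 0, 10.03, 0, 4.48 and 1.38. It was at 0 in 2 anti-CD22 and 3 IgG libraries, and an entry of 0 allows up to 3 reads, or between 2.20 and 4.14 normalized counts in these libraries. With a mean of 5.27 over all libraries it was not tested. Without a filter on low values its log2 fold change was 0.43 (95% interval -1.31 to 2.17, adjusted p = 0.854 by limma). The fourth gene of the family, Egr4, which does not bind Nab proteins, is not one of the 8 and did not reach the level for testing either.

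**Figure D1:**
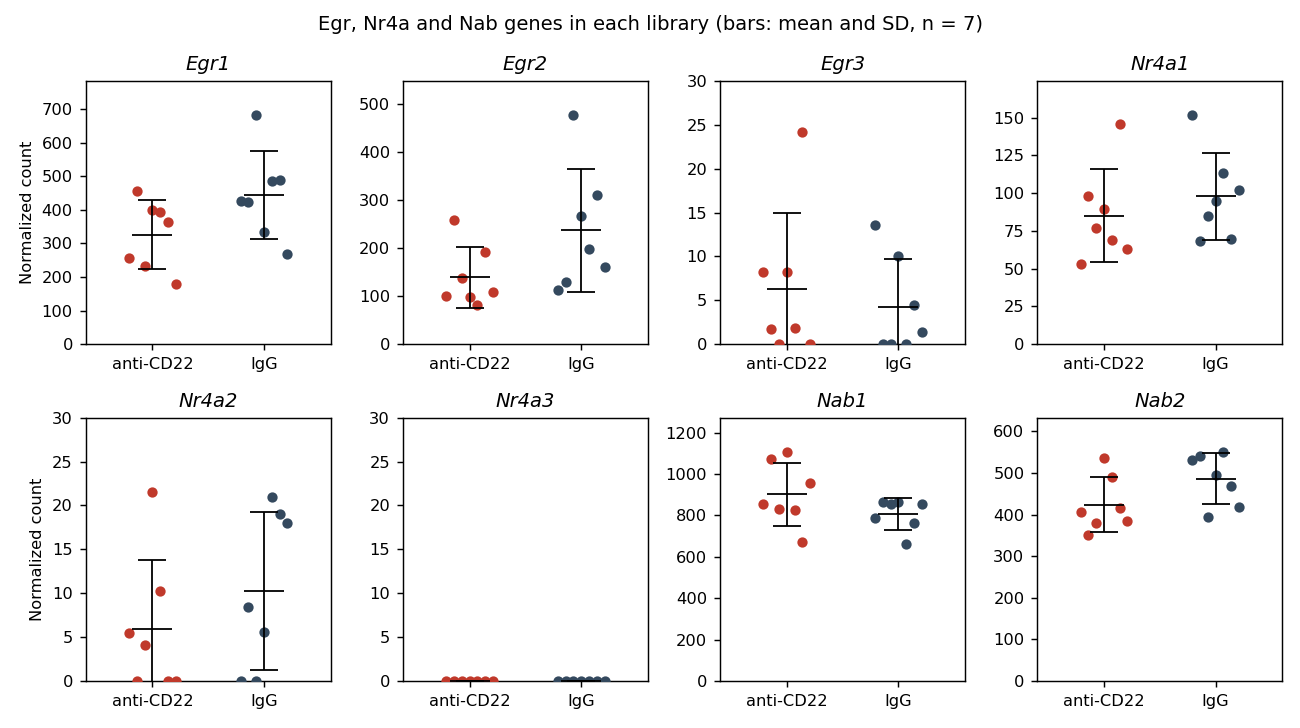
Normalized count of each gene (vertical axes, linear, from 0) in the 7 anti-CD22 and 7 IgG libraries, 1 point per library, with the mean and SD as bars that are cut off at 0. Egr1 and Egr2 are lower on average with anti-CD22 (Egr1 326 with anti-CD22 against 445 with IgG, Egr2 139.6 with anti-CD22 against 237 with IgG) with overlapping libraries, and Nr4a3 is at 0 in all 14.

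Nr4a1, also called Nur77, was the 1 Nr4a receptor with enough reads for a test. It lies on chromosome 15 at 101254269 to 101274795 on the plus strand. Its normalized count was 53.1, 98.1, 76.7, 89.4, 68.7, 146 and 63.2 in anti-CD22 replicates 1 to 7. It was 152, 68.2, 85.2, 94.7, 113, 69.4 and 102 in IgG replicates 1 to 7. Each group had 1 high library, anti-CD22 replicate 6 and IgG replicate 1, and the groups overlapped widely. The mean was 85.0 ± 30.9 in anti-CD22 microglia and 97.8 ± 28.9 in IgG microglia (SD, n = 7 each), a log2 fold change of -0.22 with an SE of 0.25 (95% interval -0.75 to 0.31). It did not pass (adjusted p = 0.736 by limma). It was -0.36 without anti-CD22 replicate 6, -0.11 without IgG replicate 1 and -0.14 when trend-free.

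Nr4a2, also called Nurr1 and needed for dopamine neurons, was found in some libraries at a handful of reads. It lies on chromosome 2 at 57106830 to 57124003 on the minus strand. Anti-CD22 replicates 1 to 7 had 5.49, 0, 4.04, 21.6, 10.2, 0 and 0 normalized counts. IgG replicates 1 to 7 had 0, 8.39, 0, 5.57, 21.0, 19.0 and 17.9. Libraries at 0 occurred in both groups (3 with anti-CD22 and 2 with IgG), and the most reads in any of the 13 libraries with whole reads was 21. Without a filter on low values its log2 fold change was -0.85 (95% interval -2.77 to 1.07, adjusted p = 0.760 by limma).

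Nr4a3, also called NOR1, on chromosome 4 at 48045153 to 48086447, was at 0 in all 14 libraries. That is 0 of 372171423 reads in the 13 libraries with whole reads, and a count of 0 allows up to 3 reads per library, which covers counting error only. No fold change was computed for it.

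Nab1 was the most abundant member and the 1 tested member with a higher mean in anti-CD22 microglia. It lies on chromosome 1 at 52457294 to 52500679 on the minus strand. Its normalized count was 854, 1074, 829.6, 1107, 827, 669.6 and 955 in anti-CD22 replicates 1 to 7. In IgG replicates 1 to 7 it was 787, 866, 854, 865, 663, 762 and 853. Anti-CD22 replicates 2, 4 and 7 lay above every IgG library, and the other 4 lay within the IgG range. The mean was 902 ± 153 in anti-CD22 microglia and 807 ± 75.8 in IgG microglia (SD, n = 7 each). The log2 fold change was 0.15 with an SE of 0.11 (95% interval -0.08 to 0.38), which did not pass (adjusted p = 0.580 by limma). It was 0.10 without anti-CD22 replicate 4.

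Nab2, the corepressor that Egr factors are known to induce, lies on chromosome 10 at 127660918 to 127668568 on the minus strand. Its normalized count was 405, 351, 380.5, 536, 491, 417 and 385 in anti-CD22 replicates 1 to 7. In IgG replicates 1 to 7 it was 532, 541, 395, 495, 550.2, 469 and 418. Anti-CD22 replicates 2, 3 and 7 lay below every IgG library, and 6 of 7 were below the middle IgG value. The mean was 424 ± 66.2 in anti-CD22 microglia and 486 ± 61.2 in IgG microglia (SD, n = 7 each), a log2 fold change of -0.20 with an SE of 0.12 (95% interval -0.45 to 0.05). It did not pass (adjusted p = 0.491 by limma), and the trend-free value was -0.10 (adjusted p = 0.834). Nab2 values are uncertain, because 3 genes on the opposite strand overlap it, and the sources used here do not say that strand was used in counting. Of the 2941 exonic bases of Nab2, the antisense RNA Gm16229 shares 1050, Nemp1 shares 151, and Stat6, at a mean of 8659 normalized counts, shares 40.

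**Figure D2:**
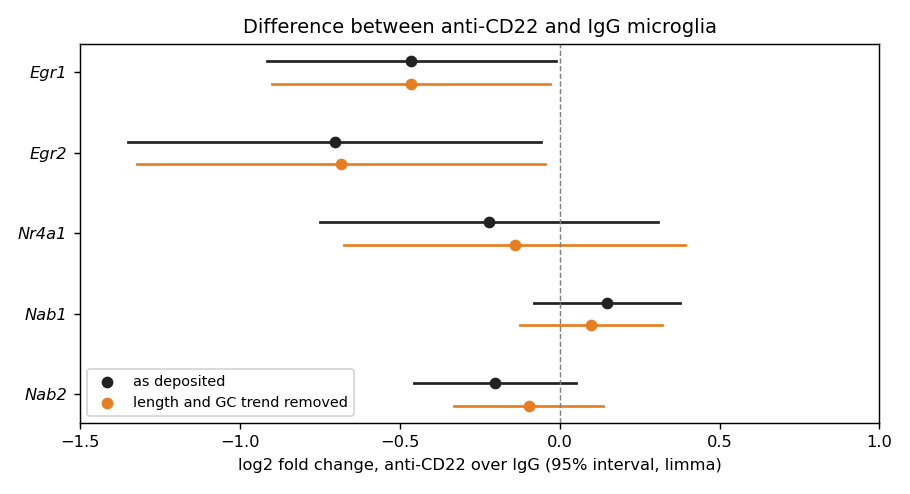
Log2 fold change of anti-CD22 over IgG (horizontal axis) with its 95% interval for the 5 tested members, as deposited (black) and with the length and GC trend removed (orange). The intervals of Nr4a1, Nab1 and Nab2 include 0, and those of Egr1 and Egr2 end just under it, at -0.01 and -0.06 as deposited.

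Levels of different genes were set side by side per kilobase of the longest annotated transcript, in normalized counts per kb. Nab1 averaged 233 ± 39.6 per kb in anti-CD22 microglia and 208 ± 19.6 in IgG microglia, and Nab2 164 ± 25.6 with anti-CD22 and 188 ± 23.7 with IgG (SD, n = 7 each). Both corepressors had higher mean levels than the factors they bind. Egr1 averaged 72.6 ± 22.9 per kb with anti-CD22 and 99.1 ± 29.3 with IgG, and Egr2 47.1 ± 21.4 with anti-CD22 and 79.8 ± 42.9 with IgG. Nr4a1 followed with 33.3 ± 12.1 per kb with anti-CD22 and 38.3 ± 11.3 with IgG.

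The order of these levels was steady at some steps and not at others. Nab2 lay above Egr1 in 14 of 14 libraries, and Nr4a1 lay above Nr4a2 in 14 of 14. Nab1 lay above Nab2 in 12 of 14, Egr1 above Egr2 in 12 of 14, and Egr2 above Nr4a1 in 12 of 14. Nr4a2 and Egr3 had no steady order, with Nr4a2 higher in 7 of 14 and both at 0 in anti-CD22 replicate 7 and IgG replicate 3. Among all tested genes of known length, Nab1 stood at percentile 54.8 of the levels per kb, Nab2 at 49.6, Egr1 at 34.7, Egr2 at 29.6 and Nr4a1 at 21.1.

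Within families, 1 or 2 genes carried nearly all of the signal. Egr1 made up 60.1 ± 9.77% of the summed Egr level per kb in anti-CD22 microglia and 56.6 ± 9.93% in IgG microglia (SD, n = 7 each). Egr2 made up 38.7 ± 9.88% with anti-CD22 and 42.7 ± 10.1% with IgG. The Egr2 share was lowest in anti-CD22 replicates 4 and 5, at 26.7% and 24.0%, and highest in IgG replicates 3 and 4, at 51.4% and 53.9%. Nr4a1 made up at least 83.6% of the Nr4a level in each library. The summed Nab level was 3.53 ± 1.06 times the summed Egr level in anti-CD22 microglia and 2.44 ± 0.779 times in IgG microglia (SD, n = 7 each). This ratio ranged from 2.19 to 5.18 with anti-CD22 and from 1.20 to 3.33 with IgG. These sums are over chosen members and were not tested.

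**Figure D3:**
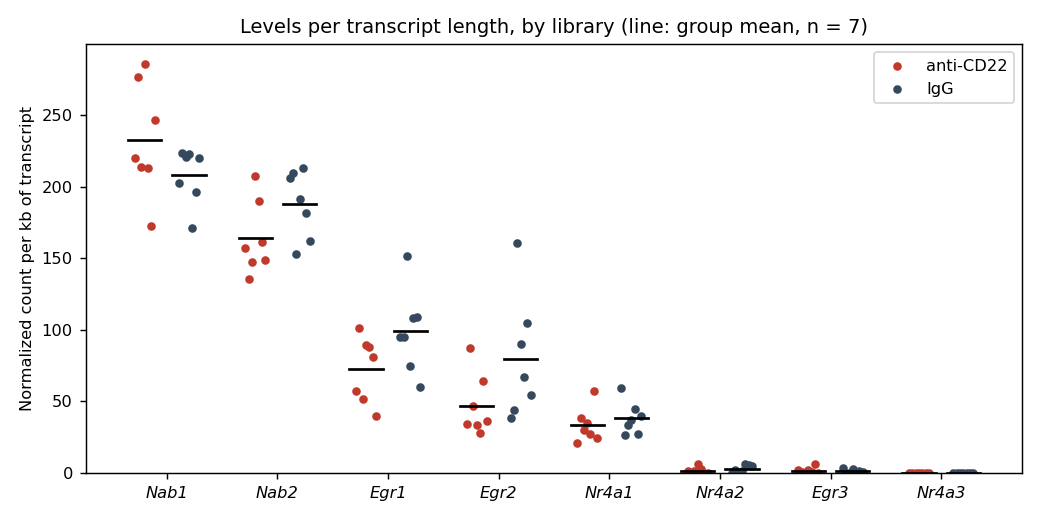
Normalized count per kb of transcript (vertical axis, linear, from 0) for each member, ordered by mean level, with 1 point per library and a line at each group mean (n = 7). The Nab corepressors lie highest, followed by Egr1, Egr2 and Nr4a1, while Nr4a2, Egr3 and Nr4a3 lie at or near 0.

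Egr1 and Egr2 had larger coefficients of variation between libraries of 1 group than the corepressors. The coefficient of variation of Egr2 was 45.5% in anti-CD22 and 53.8% in IgG libraries, and that of Egr1 was 31.6% with anti-CD22 and 29.6% with IgG. Nab1 had 17.0% with anti-CD22 and 9.40% with IgG, and Nab2 had 15.6% with anti-CD22 and 12.6% with IgG. The SD of log2 values within groups was 0.66 for Egr2, above that of 93.7% of the 1405 tested genes whose mean level lay within 1.5 times of it. It was 0.46 for Egr1, above 90.3% of 2008 such genes. For Nr4a1 it was 0.44, above 32.0% of 983 such genes. For both Nab1 and Nab2 it was 0.20, above 41.5% of 2382 genes near the level of Nab1 and 19.9% of 2138 near that of Nab2. The share for Nr4a1 thus lay between those for Nab1 and Nab2.

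Whether the members vary together from library to library was examined within each group, so that a group difference could not make the relation. Egr1 was set against each of the other 4 tested members on the log2 scale, which gave 8 relations of 7 libraries each. None passed, with a lowest exact permutation p of 0.193 and adjusted p from 0.817 upward for Pearson's r (two-sided). For Egr1 and Egr2, r was 0.33 in anti-CD22 libraries (rho 0.04, exact permutation p = 0.450 for r and 0.963 for rho). In IgG libraries it was 0.55 (rho 0.57, exact permutation p = 0.204 for r and 0.200 for rho). Without the 2 libraries farthest from the Egr1 median, IgG replicates 3 and 7, it was -0.02, so the IgG value rests on these libraries. For Egr1 and Nr4a1, r was 0.56 in anti-CD22 libraries (rho 0.57, exact permutation p = 0.193 for r) and -0.21 in IgG libraries (rho -0.18, exact permutation p = 0.658).

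The relations of Egr1 to the corepressors did not pass either. For Egr1 and Nab2, r was 0.36 in anti-CD22 libraries (rho 0.21, exact permutation p = 0.416) and -0.10 in IgG libraries (rho -0.14, exact permutation p = 0.825). For Egr1 and Nab1, r was 0.15 in anti-CD22 libraries (rho 0.32, exact permutation p = 0.741) and -0.28 in IgG libraries (rho -0.39, exact permutation p = 0.523). Without the 2 libraries farthest from the Egr1 median, r in anti-CD22 libraries was 0.43 for Egr2, 0.56 for Nr4a1, 0.39 for Nab1 and 0.04 for Nab2. In IgG libraries it was then -0.09 for Nr4a1, -0.74 for Nab1 and 0.12 for Nab2.

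**Figure D4:**
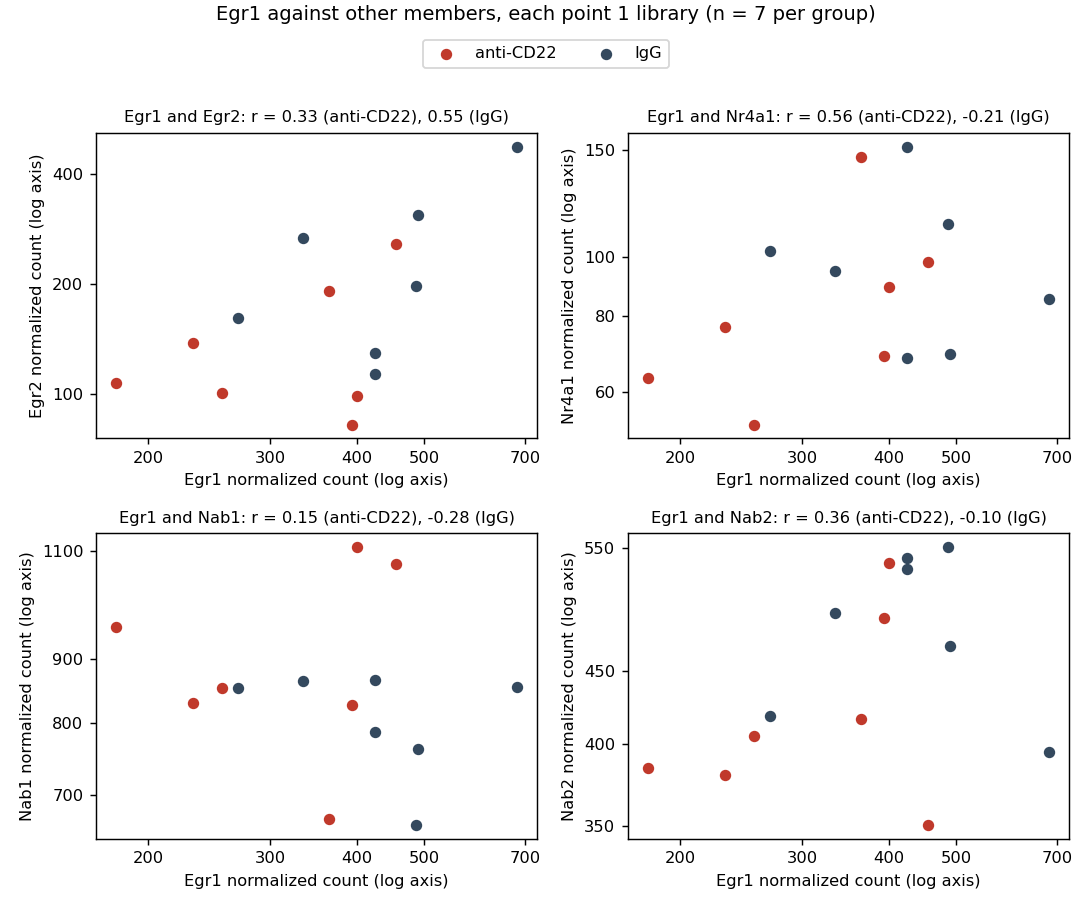
Normalized count of Egr1 (horizontal, log axis) against Egr2, Nr4a1, Nab1 and Nab2 (vertical, log axes), 1 point per library, 7 per group, with Pearson's r of the log2 values in the panel titles. The library at the upper right of the Egr2 panel is IgG replicate 3, with 682 for Egr1 and 476 for Egr2.

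The genes most like the leading member of each family were found by the Pearson r of log2 values after subtracting each group's mean, over 14 libraries, as a description with no test. For Egr1 they were the bile acid transporter gene Slc10a1 (r = 0.87, rho = 0.76), the autophagy protease gene Atg4b (r = 0.86, rho = 0.89) and Gpat2, an acyltransferase gene (r = 0.80, rho = 0.71). Egr2 came 657th in that order (r = 0.44) and Nr4a1 2382nd (r = 0.24). For Nr4a1 they were the histone demethylase gene Kdm4a (r = 0.87, rho = 0.85), the sulfurtransferase gene Mpst (r = 0.84, rho = 0.89) and Jazf1 (r = 0.81, rho = 0.81). For Nab1 they were the coactivator gene Ncoa6 (r = 0.85, rho = 0.71), the kinase gene Pdik1l (r = 0.85, rho = 0.88) and the Integrator subunit gene Asun (r = 0.84, rho = 0.89).

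Other immediate early transcription factors, which are induced by the same kinds of stimuli, mostly had log2 fold changes below 0, and 1 passed. Of 14 listed, 11 were tested, 8 below 0 and 3 above, with a median log2 fold change of -0.44 (-0.25 when trend-free) against 0.00 over all tested genes. The 5 tested members had a median of -0.22. Ier2, an immediate early gene, was the 1 gene of the list past the limma threshold, at 326 ± 45.5 normalized counts with anti-CD22 and 598 ± 103 with IgG (SD, n = 7 each). It fell by 0.87 on the log2 scale (adjusted p = 0.0227 by limma), while the trend-free value was -0.72 and did not pass (adjusted p = 0.208). At an unadjusted p under 0.05 by limma, 8 genes of the list were lower and 1 was higher. Of all 11646 tested genes, 693 were lower and 792 higher at that limit, and 49.8% had a log2 fold change below 0. By edgeR 0 passed, and by DESeq2 4 did, namely Ier2, Jun, Myc and Klf10. Ier2, Jun and Myc are named because they had the smallest p of the list by limma, and Klf10 after its values were seen. The list itself was chosen with earlier results of these data known. DESeq2 gave no adjusted p for 2 of the 11. For the AP-1 subunit Jun the log2 fold change was -0.63 and for the growth regulator Myc it was -0.64, and neither passed (adjusted p = 0.0890 for Jun and 0.144 for Myc by limma).

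Factors that switch on Egr and Nr4a genes, namely SRF and its Elk and Mkl partners, CREB and its coactivators and the MEF2 factors, were mostly slightly above 0. Of 17 tested, 15 were above 0 and 2 below, with a median log2 fold change of 0.15, or 0.10 when trend-free. Trend-free values exist for 15 of them (not for Mkl1 and Mkl2), and 10 were above 0 and 5 below. By limma 0 passed, with 4 higher at an unadjusted p under 0.05, and 0 passed by edgeR or DESeq2. Of all 11646 tested genes, 792 were higher and 693 lower at an unadjusted p under 0.05 by limma, and 5851 were above 0. DESeq2 gave no adjusted p for 5 of the 17. Mef2a averaged 9820.2 ± 1449 normalized counts with anti-CD22 and 7304 ± 1234 with IgG (SD, n = 7 each), a log2 fold change of 0.43 (adjusted p = 0.171 by limma). For the acetyltransferase Ep300 it was 0.38 and for Mef2c 0.18. The trend-free values were 0.28 for Mef2a, 0.23 for Ep300 and -0.01 for Mef2c. Genes of the Ras to ERK cascade, which feeds these factors, had 10 of 19 above 0 with a median of 0.01, but 5 above and 14 below 0 when trend-free, with a median of -0.02. By limma 0 of these genes passed (2 higher and 2 lower at an unadjusted p under 0.05). By edgeR or DESeq2 0 passed, and DESeq2 gave no adjusted p for 3 of the 19. The kinase Rps6ka4 stood at -0.27 and the Ras activator Sos2 at 0.44.

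Genes reported as Egr targets in other cells mostly had log2 fold changes below 0, but none passed. Of 15 listed, 14 were tested, 12 of them below 0 and 2 above, with a median log2 fold change of -0.19 (-0.18 when trend-free). Over all tested genes, 49.8% were below 0. By limma 0 passed, with 1 higher at an unadjusted p under 0.05, and 0 passed by edgeR or DESeq2. DESeq2 gave no adjusted p for 6 of the 14. Tissue factor (F3) stood at -0.40 and the growth factor gene Pdgfa at -0.20. Partners of the members did not pass either, with 0 of 7 Nr4a partners and corepressors and 0 of 11 subunits of NuRD, the remodelling complex that Nab proteins recruit, past the threshold by limma, edgeR or DESeq2. Their medians were 0.08 for the Nr4a partners (-0.02 when trend-free) and 0.04 for NuRD. At an unadjusted p under 0.05 by limma, 2 of the Nr4a partners were lower and 0 of the NuRD genes met that limit. Over all tested genes, 12.8% met it in either direction and 5.95% in the lower direction. DESeq2 gave no adjusted p for 2 of the NuRD genes. The retinoid receptor Rxrg, a possible dimer partner of Nr4a1 and Nr4a2, averaged 365 ± 67.2 normalized counts with anti-CD22 and 483 ± 112 with IgG (SD, n = 7 each). Its log2 fold change was -0.39 (adjusted p = 0.334 by limma), beside -0.14 for Rxrb and 0.23 for Rxra. In NuRD, Mbd3 stood at -0.17, Chd3 at 0.53 and Mta2 at -0.10.

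**Figure D5:**
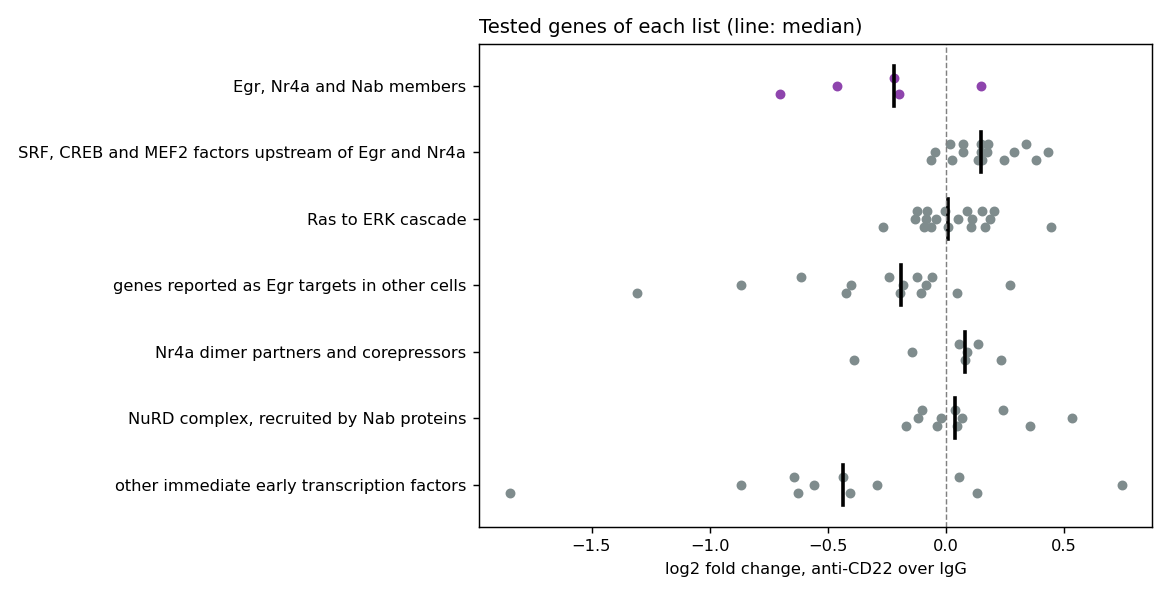
Log2 fold change of anti-CD22 over IgG (horizontal axis) for each tested gene, 1 point per gene, with a black line at the median of each list. The median is -0.22 for the members, -0.44 for other immediate early factors and 0.15 for the upstream factors.

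Transcripts of other cell types were present at low levels and differed between libraries. The 8 neuron markers were all detected, 2 of them at a mean of at least 10, and summed to 73.3 to 211 normalized counts in anti-CD22 libraries and 138 to 239 in IgG libraries. Neurons are rich in Egr1. The mean neuron sum was lower with anti-CD22 than with IgG, as were the means of Egr1 and Egr2. IgG replicate 3, which had the most Egr1 and Egr2, had the lowest neuron sum of the IgG group. The relation of the neuron sum to Egr1 or Egr2 over libraries was not tested. The 7 monocyte and neutrophil markers summed to 89.1 to 2700.3 normalized counts in anti-CD22 libraries and 140.4 to 12008 in IgG libraries. The top value belonged to IgG replicate 1, the library highest in Nr4a1 and highest in Egr3 among IgG. Anti-CD22 replicate 6, the highest of its group in both genes, had a marker sum of 107. IgG replicate 7, with the next highest sum, had 102 normalized counts for Nr4a1 and 1.38 for Egr3. The 6 markers of border-associated macrophages summed to 232 to 2097 with anti-CD22 and 76.1 to 1336 with IgG. The 6 astrocyte markers summed to 6595 to 8426 with anti-CD22 and 5919.5 to 8566 with IgG, nearly all of it Slc1a3, and the 6 oligodendrocyte markers to 4949 to 5660 with anti-CD22 and 5451 to 6710 with IgG. The 5 endothelial markers summed to 885 to 1235 with anti-CD22 and 635 to 1216 with IgG, with Cldn5 at 0 throughout. The 4 B cell markers, with Ms4a1 at 0, summed to 1133 to 1463 with anti-CD22 and 1208 to 1639.6 with IgG. The T and NK cell markers reached at most 7.80, with Cd3e and Gzma at 0. On average, neuron markers summed to 138 with anti-CD22 and 194 with IgG. The difference lay mostly in Syp (82.1 with anti-CD22 and 134 with IgG). Gad1 (4.44 with anti-CD22 and 8.27 with IgG), Gad2, Slc17a7 and Syt1 were also lower with anti-CD22. Snap25 (37.8 with anti-CD22 and 35.4 with IgG), Rbfox3 and Tubb3 were not lower. Monocyte and neutrophil markers averaged 1072 with anti-CD22 and 2815 with IgG. The IgG mean rests mostly on IgG replicates 1 and 7, at 12008 and 4856. The middle library had 896 with anti-CD22 and 476 with IgG. Border-associated macrophage markers averaged 1002 with anti-CD22 and 595 with IgG. The part of these transcripts in the member values was not tested.

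Promoter sequences of 6 members were available from RefSeq (GRCm38.p6), as 10 windows of 300 bases that run from 250 before to 50 after a start site. Egr1 and Egr3 are not among them. They were searched on both strands for a CArG box (the site of the serum response factor), the CREB site TGACGTCA, the Egr site GCGNGGGCG and the Nr4a site AAAGGTCA. Windows of Egr2, Nr4a1 and Nab1 are shown because they hold such a match in the member with the largest difference, the main Nr4a receptor and the most abundant corepressor. Capitals mark the matches, and each sequence runs 5′ to 3′ on the strand of the gene.
Egr2, chr10:67537619-67537918, plus strand, CArG box: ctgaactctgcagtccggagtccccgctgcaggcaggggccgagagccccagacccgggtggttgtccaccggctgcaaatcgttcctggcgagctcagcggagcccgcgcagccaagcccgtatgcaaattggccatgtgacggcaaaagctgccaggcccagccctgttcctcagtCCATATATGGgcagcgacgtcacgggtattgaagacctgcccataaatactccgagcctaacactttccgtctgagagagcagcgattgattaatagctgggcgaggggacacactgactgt
Nr4a1, chr15:101266596-101266895, plus strand, Egr site on the opposite strand: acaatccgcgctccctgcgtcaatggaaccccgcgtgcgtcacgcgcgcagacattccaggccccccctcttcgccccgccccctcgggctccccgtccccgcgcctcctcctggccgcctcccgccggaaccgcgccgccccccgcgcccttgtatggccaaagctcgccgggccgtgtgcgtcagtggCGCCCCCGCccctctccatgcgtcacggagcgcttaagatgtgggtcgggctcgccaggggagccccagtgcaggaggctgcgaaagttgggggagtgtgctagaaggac
Nab1, chr1:52500399-52500698, minus strand, Egr sites, 1 on the opposite strand and 2 on the same: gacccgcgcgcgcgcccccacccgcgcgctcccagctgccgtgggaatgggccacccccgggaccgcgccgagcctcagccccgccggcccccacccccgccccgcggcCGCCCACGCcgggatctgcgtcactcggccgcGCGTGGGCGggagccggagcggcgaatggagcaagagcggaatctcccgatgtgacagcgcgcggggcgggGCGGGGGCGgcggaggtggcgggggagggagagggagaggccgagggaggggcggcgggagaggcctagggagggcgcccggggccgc

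A CArG box was in 4 of 5 Egr2 windows, 3 of which overlap and share the box shown, and in 1.63% of all 32851 promoter windows. The Egr site was in the windows of Nab1 (3 matches), Nr4a1 (1) and Nr4a2 (1), and in 5.55% of all windows. These windows are rich in G and C, and of the 3148 windows with at least 70% G and C, 28.7% held it. No window of a member held TGACGTCA or AAAGGTCA, which 1.79% and 1.51% of all windows did. The Nab2 and Nr4a3 windows held none of the 4 sites as spelled above. Shorter or inexact forms were not searched. A match describes the letters in the window and is not a bound site.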

How the data were processed

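RNA of sorted microglia was sequenced in 14 libraries, 7 anti-CD22 and 7 IgG, grouped by sample title. Per the submitters' processing notes, the tools were bcl2fastq, STAR and DESeq2 and the build mm10. Their versions, the annotation and the strand setting were not given in the sources used here. Deposited values are a signal: in 13 libraries they are whole counts per gene times 1 constant, as a size factor applied by the authors would give. Of 24421 entries, 27 with names turned into dates (at most 0.149% of a library) were left out, and 0 columns lacked a sample.

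The main test was limma 3.58.1 (R 4.3.3) on log2(normalized count + 1) with a mean-variance trend, for 11646 genes with a mean of at least 10, two-sided, Benjamini-Hochberg adjusted over all of them, threshold 0.05. Members and lists were chosen with earlier results of these data known. Named are the 8 members, the 3 genes of each list with the smallest p and the 3 genes most like each family's leading member. A few genes that this rule names are not reported here. In 13 libraries, 100% of values were whole multiples of 1 step (tolerance 0.1 reads), and those reads went to edgeR 4.0.16 (0 genes called, 1027 at an unadjusted p under 0.05) and DESeq2 1.42.0 (32 called; no adjusted p for 3839). Anti-CD22 replicate 3 stayed out, since a step so near 1 cannot show whole reads. Length, GC content and coordinates came from GENCODE vM21 (GRCm38, the assembly of mm10), with lengths for 96.4% of tested genes; the trend was removed with natural splines of 4 degrees of freedom. The main limma fit was tested on simulated counts. No replicate pair was alike within counting error (chi-square per gene at least 18.2). Intervals of fold changes come from limma and rest on the spread between libraries. Floors of 3 reads cover counting error only, since reads carry no molecular identifiers.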

Additional observations from a re-analysis of the deposited data

Results flagged for a closer look

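Egr3 in anti-CD22 replicate 6 stood at 24.2 normalized counts, or 33 reads, while the next anti-CD22 library had 8.24. The gap is 0.660 of the group's range, above the limit of 0.568 for 7 samples. The 14 groups of member values that were not all 0 were checked in this way and 1 was marked. Chance marks about 1 group in 20 where values are normally distributed. That rate need not hold for low, uneven counts such as those of Egr3. The same library also had the highest Nr4a1 of its group.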

How the results depend on the processing

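Members called stayed at 0 under each of the 32 alternatives, and the 5 tested members kept their direction in each fit that leaves out 1 library or changes a setting. Other settings gave log2 fold changes of -0.49 to -0.38 for Egr1 and -0.89 to -0.68 for Egr2. Leaving out 1 library at a time gave -0.57 to -0.33 for Egr1, -0.87 to -0.51 for Egr2, -0.36 to -0.11 for Nr4a1, 0.10 to 0.22 for Nab1 and -0.26 to -0.16 for Nab2. Without anti-CD22 replicates 1, 2 and 3, which have the steepest length trend (chosen after seeing the data), Nr4a1 stood at -0.12 and Nab2 at -0.09.

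Over all genes, 1 passed in the main fit. It was 0 without a mean-variance trend, with the length and GC trend removed, with edgeR (with or without a filter on low values, the second chosen after seeing the data), by limma on the 13 libraries with whole reads and without the 3 steepest libraries. It was 8 with array weights, 32 with DESeq2, 4 at an adjusted p of 0.10 and from 0 to 43 when 1 library was left out, 43 without anti-CD22 replicate 7. The cause was not tested. With the replicate number as a block (replicate block) it was 2, where Egr1 had an adjusted p of 0.298 and Egr2 of 0.295; same-numbered libraries correlated at -0.145 to 0.160 across genes, with 0 of 7 anti-CD22 libraries closest to its own number, so the numbers were not taken as pairs. Of the 8 Egr1 relations, those with Egr2 (-0.023) and Nab2 (0.12) in IgG changed sign without the 2 farthest libraries. Egr3, Nr4a2 and Nr4a3 had 0 to 33 reads per library, too few for the main test.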
